A study of Caenorhabditis elegans with 40 samples.

Results

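The comparison described here asked whether Caenorhabditis elegans lacking 1 copy of a large-subunit ribosomal protein gene changed its RNA differently from animals lacking 1 copy of a small-subunit gene. It used 17 distinct RNA-seq libraries of the 40 samples in the series, chosen by their column headings and not by any measured value. The 2 large-subunit libraries, called rpl here, came from rpl-33(0)/+ animals by their headings, where (0) is a null allele. The small-subunit libraries came from rps-10(0)/+ (2 libraries) and rps-23(0)/+ animals (2 libraries). Each null allele was kept over a balancer, a rearranged chromosome that suppresses recombination: mIn1 (written mc6 in the headings) for rpl, tmC20 for rps-10 and tmC5 for rps-23. The controls were wild-type animals over the same balancers, with 4 libraries for mIn1, 3 for tmC20 and 4 for tmC5. All groups were whole animals grown at 16°C on E. coli OP50. Mutants were collected at day 4 as L4 larvae. Controls were collected at day 3, as L4 larvae of matched stage, and at day 4, when the labels call most of them pregravid adults. Both ages were pooled in the main comparison. Only 1 tmC20 control was used as day 4, so the age mix differed between the control sets. The 3 balancers cover different chromosomes (II, I and IV), so subunit, balancer, balanced chromosome and strain cannot be told apart. Whole-animal RNA also cannot tell fewer cells of a type from less RNA per cell.

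A ribosome has a large subunit, which joins amino acids, and a small subunit, which reads the mRNA. Animals with 1 copy of a ribosomal protein gene can make fewer ribosomes, and across species they often develop slowly. For these mutants the paper reports slow development but no significant drop in total translation, measured by puromycin labelling at matched stage. Stress genes known to answer to such changes in worms include glutathione S-transferases, which are driven by the Nrf-like factor SKN-1, and chaperones, which are driven by HSF-1 in the cytosol and by XBP-1 for the endoplasmic reticulum. The response to the 2 subunits was compared as a difference of differences: the log2 change of rpl against its mIn1 controls, minus the mean of the log2 changes of rps-10 and rps-23 against their own controls. A positive value means a higher change in rpl.

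Several libraries went against their labels or had labels that did not settle what they held, and this bears on every result. The columns headed rpl-5(0)/+ held the same counts as those headed rpl-33(0)/+ for all 9532 genes, so the pair was used once and which of the genotypes it holds was not settled. Neither gene identified it. Rpl-33 RNA was 931 and 640 CPM (each count set to a common library size by TMM scaling) in rpl, against 542 to 826 CPM in mIn1 controls, and rpl-5 RNA was 3662 and 5146 CPM in rpl, against 2141 to 3533 CPM in those controls. In each small-subunit mutant the targeted gene lay below its own controls, which does not by itself settle the labels. Rps-10 RNA was 1069 and 1136 CPM in rps-10(0)/+, against 1394 to 1795 CPM in tmC20 controls, and rps-23 RNA was 808 and 715 CPM in rps-23(0)/+, against 838 to 1205 CPM in tmC5 controls. Both pairs of ranges lay apart, although neither change passed the test over all genes (edgeR quasi-likelihood test, adjusted p = 1 in rps-10 and 0.617 for rps-23). The tmC20 columns headed replicate 2 of day 3 and of day 4 were also identical and were used once, as day 3. Among the tmC5 controls, day 3 replicate 1 had adult-like yolk gene RNA (68243 CPM summed over 6 vitellogenins) and 1 day 4 library had larva-like levels (3410 CPM). The labels call 1 of the day 4 tmC5 samples L4 stage, so larva-like levels need not go against that label. Which column holds that sample was not settled. Library totals ran from 1017787 to 2384186 counts, and both rpl libraries (1155321 and 1165363) lay near the low end.

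No gene passed the threshold for the difference between rpl and the small-subunit mutants. Of 9276 genes tested, 0 (0%) had an adjusted p under 0.05 in edgeR's quasi-likelihood test, with a smallest adjusted p of 0.15, while 737 (7.95%) had an unadjusted p under 0.05, 378 higher and 359 lower. Each arm on its own did hold calls: 236 genes in rpl (2.54% of those tested; 173 higher), 12 in rps-10 (0.129%; 8 higher) and 58 in rps-23 (0.625%; 35 higher). Counts that pass in one arm and not in another do not show that the arms differ. Against each small-subunit mutant alone, 14 genes differed between rpl and rps-10 (0.151%; 10 higher and 4 lower in rpl), and 0 differed between rpl and rps-23, where 489 (5.27%) had an unadjusted p under 0.05. Between rps-10 and rps-23 the count was also 0, with 327 (3.53%) at an unadjusted p under 0.05. DESeq2 called 27 genes in the main comparison (20 higher, 7 lower), limma voom called 0, and edgeR with each control age as its own group called 18 (13 higher, 5 lower). With day 3 controls alone the count was 1, on the lower side, and with day 4 controls alone it was 50 (8 higher and 42 lower, with 8 of the 42 in the sperm list). Neither setting isolates age, here or below. Each holds a tmC5 control with yolk RNA of the other age, and the day 4 setting holds only 1 tmC20 library.

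**Figure D1:**
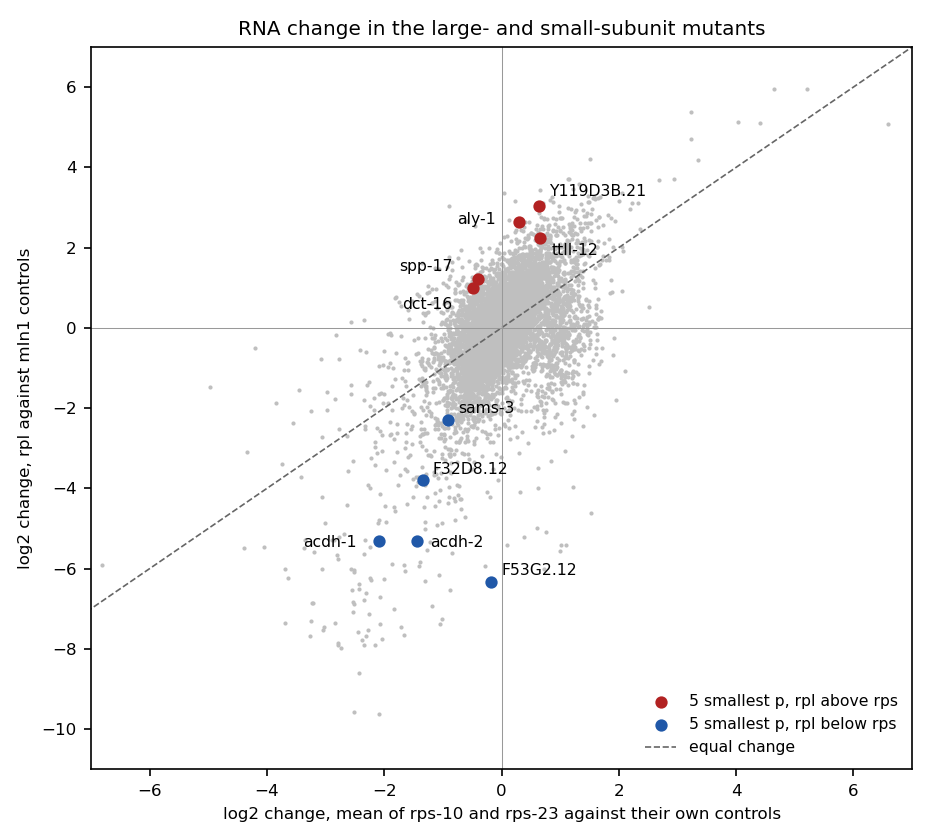
RNA change of each of 9276 genes in the mean of rps-10 and rps-23 (x axis) and in rpl (y axis), both as log2 change against their own balancer controls. The dashed line marks an equal change, and the 10 coloured genes are those with the smallest p in each direction, whose adjusted p ran from 0.15 to 0.243.

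The 5 genes with the smallest p among those higher in rpl are described first. None of them passed the adjusted threshold. Y119D3B.21 (chromosome III, 1215000 to 1215200, WBcel235), a short gene model that RefSeq names as a homolog of KRI1, a ribosome assembly factor in yeast, had 227 and 127 CPM in rpl, against 12.1 to 27 CPM in the 4 mIn1 controls. Its level was 33.4 and 34.5 CPM in rps-10, against 24.6 to 28.6 CPM in tmC20 controls, and 44.0 and 47.8 CPM in rps-23, against 18.8 to 33.7 CPM in tmC5 controls. All 3 mutants thus lay above the range of their own controls, rpl by the widest margin. The log2 difference was 2.40 ± 0.40 (SE; adjusted p = 0.15, edgeR).

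Aly-1 (chromosome IV, 9108931 to 9109753), whose product is an adaptor for mRNA export, had 102 and 65.2 CPM in rpl, against 6.46 to 19.1 CPM in mIn1 controls. It had 19.4 and 18.7 CPM in rps-10, against 13.3 to 16.4 CPM in tmC20 controls, and 22.7 and 25.6 CPM in rps-23, against 18.7 to 25.8 CPM in tmC5 controls. Both rpl libraries lay above every other library, and rps-23 lay within its controls. The log2 difference was 2.34 ± 0.44 (SE; adjusted p = 0.15, edgeR), and it was of like size against rps-10 (2.25) and rps-23 (2.43).

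Ttll-12 (chromosome II, 9338997 to 9341394), a tubulin tyrosine ligase-like gene, had 364 and 392 CPM in rpl, against 61.6 to 99.7 CPM in mIn1 controls. It had 60.6 and 67.6 CPM in rps-10, within the 49.8 to 89.9 CPM of tmC20 controls, and 146 and 163 CPM in rps-23, above the 54.6 to 67.4 CPM of tmC5 controls. Rpl and rps-23 were thus both high and rps-10 was not. The log2 difference was 1.59 ± 0.29 (SE; adjusted p = 0.15, edgeR).

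Spp-17 (chromosome I, 1016405 to 1017176), which encodes a saposin-like protein of a family that includes pore-forming antimicrobial peptides, had 1052 and 1669 CPM in rpl, against 443 to 729 CPM in mIn1 controls. It had 192 and 215 CPM in rps-10, against 370 to 470 CPM in tmC20 controls, and 667 and 647 CPM in rps-23, against 503 to 610 CPM in tmC5 controls. The rps-10 libraries lay below their controls while those of rpl and rps-23 lay above theirs. Dct-16, named for its control by DAF-16, had the same layout in rpl (2551 and 1502 CPM, against 765 to 1255 CPM in mIn1 controls) and in rps-10 (592 and 598 CPM, against 1031 to 1348 CPM in tmC20 controls). In rps-23 it had 1001 and 884 CPM, which straddled the 909 to 985 CPM of tmC5 controls. The log2 differences were 1.61 ± 0.29 for spp-17 and 1.48 ± 0.29 for dct-16 (SE; both adjusted p = 0.15, edgeR).

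Among the 5 genes with the smallest p on the lower side, 4 were low in both rpl and rps-23: acdh-1, acdh-2, F32D8.12 and sams-3. In rps-10, 3 of them overlapped the controls and sams-3 lay just below. Acdh-1 (chromosome I, 6497436 to 6499560), an acyl-CoA dehydrogenase that opens the shunt by which worms break down propionate without vitamin B12, had 43.1 and 36.8 CPM in rpl, against 1022 to 2422 CPM in mIn1 controls. It had 1496 and 1434 CPM in rps-10, within the 788 to 2351 CPM of tmC20 controls, and 64.4 and 108 CPM in rps-23, against 776 to 1754 CPM in tmC5 controls. The log2 changes were -5.31 in rpl and -3.90 in rps-23, which both passed (adjusted p = 0.000632 and 0.00618, edgeR), and -0.29 in rps-10, which did not (adjusted p = 1). The log2 difference between rpl and the mean of both was -3.21 ± 0.64 (SE; adjusted p = 0.15), the single gene called with day 3 controls alone (adjusted p = 0.0245).

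Its paralog acdh-2 (chromosome II, 5544778 to 5547492) had 2.00 and 1.05 CPM in rpl, against 51.6 to 72.8 CPM in mIn1 controls. The rpl value rests on 3 counts in all, a ratio of 0.0247 to the mIn1 controls (95% exact binomial interval 0.00507 to 0.0726, counting error only). Rps-10 had 60.6 and 39.5 CPM, against 34.4 to 59.3 CPM in tmC20 controls, and rps-23 had 1.52 and 6.67 CPM, against 28.9 to 42.1 CPM in tmC5 controls. The paralogs resemble each other in sequence, and how reads were divided between them was not tested.

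F32D8.12 (chromosome V, 10888187 to 10891027), a D-lactate dehydrogenase by its RefSeq name, had 7.02 and 9.46 CPM in rpl, against 110 to 123 CPM in mIn1 controls. It had 87.2 and 90.8 CPM in rps-10, against 46.3 to 130 CPM in tmC20 controls, and 18.2 and 14.5 CPM in rps-23, against 90.5 to 114 CPM in tmC5 controls. The level in rpl lay below that in rps-23, and the log2 difference was -2.45 ± 0.43 (SE; adjusted p = 0.15, edgeR). Sams-3 (chromosome IV, 5848657 to 5850843), 1 of several near-identical S-adenosylmethionine synthetase genes, had 15 and 12.6 CPM in rpl, against 62.8 to 76.5 CPM in mIn1 controls. Its levels were 66.9 and 76.5 CPM in rps-10, against 82.5 to 99.1 CPM in tmC20 controls, and 33.4 and 25.6 CPM in rps-23, against 72.8 to 101 CPM in tmC5 controls. All mutants lay below their controls, in the order rpl, rps-23, rps-10 by size of change (log2 -2.29, -1.49 and -0.35).

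F53G2.12 (chromosome II, 2477178 to 2479090), a gene of the LYR-motif family by its RefSeq name, had 0 counts in both rpl libraries, out of 2320684 counts. Each of the other 15 libraries held 5 to 16 counts. A level of 3 counts over both libraries, taken as a floor, would lie 3.96-fold below the mIn1 mean of 6.10 CPM. The ratio to the mIn1 controls was 0 (95% exact binomial interval 0 to 0.339, counting error only). In rps-10 it had 5.82 and 6.41 CPM, against 6.14 to 8.83 CPM in tmC20 controls, and in rps-23 it had 6.82 and 3.89 CPM, against 4.39 to 6.66 CPM in tmC5 controls. A search made after these values were seen found 16 tested genes with 0 counts in both rpl libraries and at least 1 count in every other library. F53G2.12 had the highest minimum of these, since the minimum of the others was at most 3 counts.

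**Figure D2:**
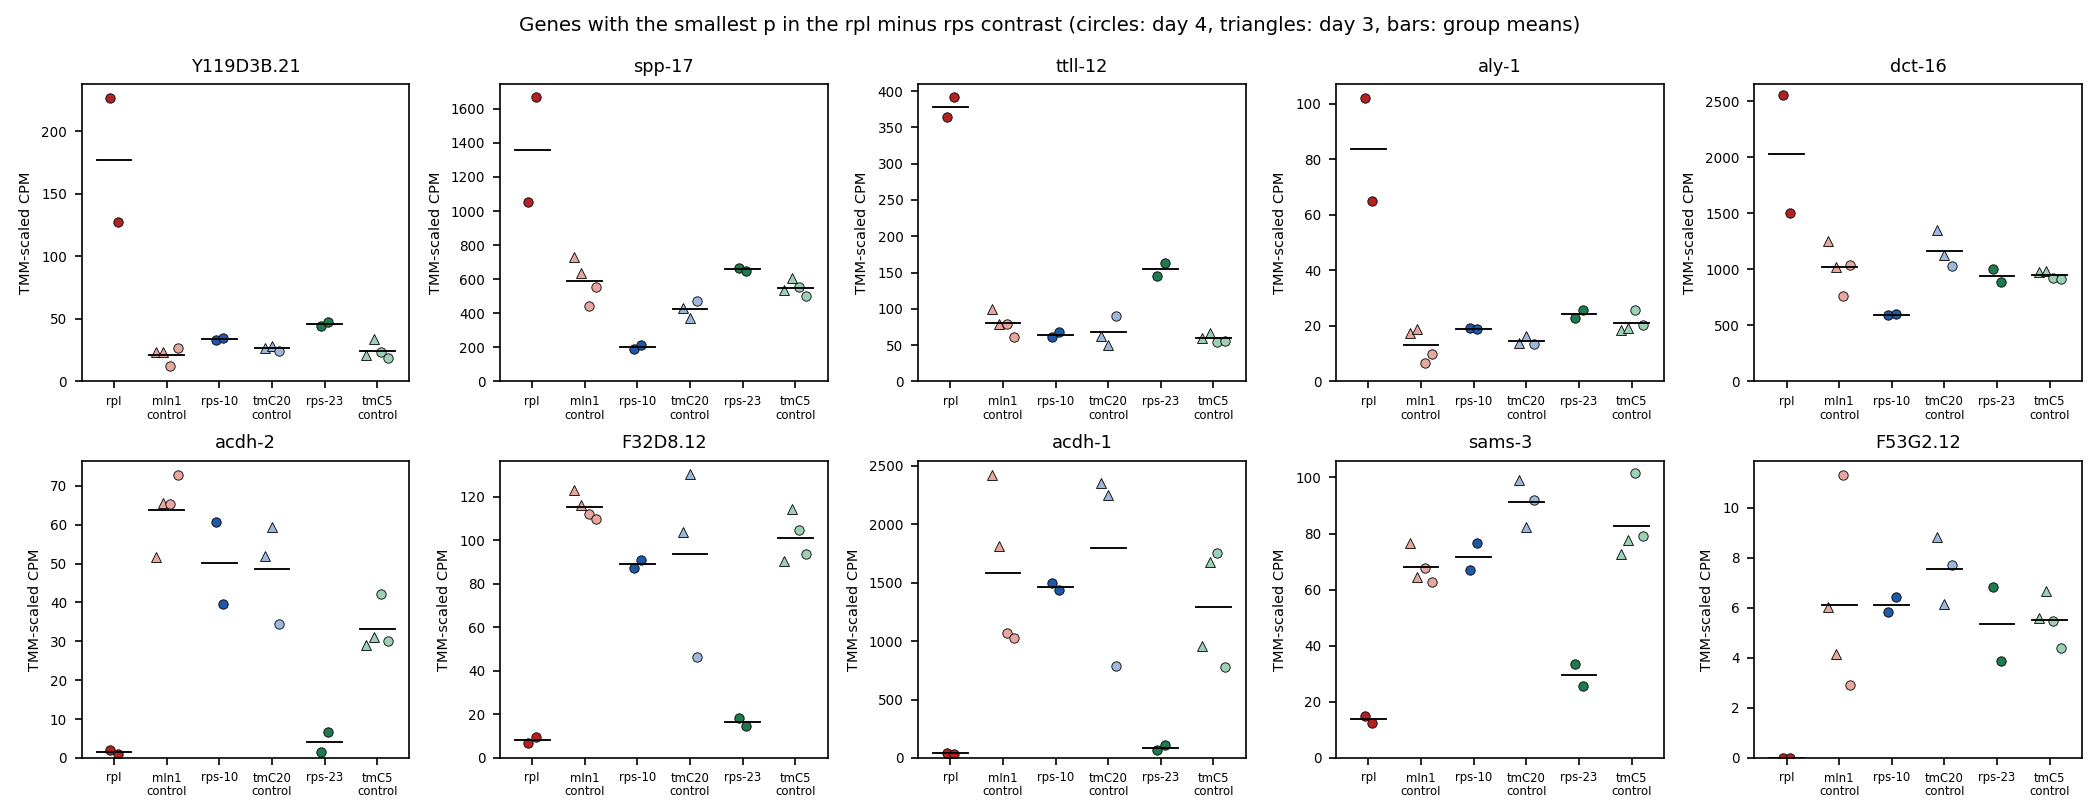
CPM (scaled by TMM) in every library for the 10 genes with the smallest p, with each mutant left of its own controls, circles for day 4 and triangles for day 3. Both rpl points lie outside their mIn1 controls in all 10 panels, and for acdh-2, F32D8.12, acdh-1 and sams-3 the rps-23 points are low as well.

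The 14 genes that passed the threshold between rpl and rps-10 included 8 of these 10, without aly-1 and F53G2.12. The other 6 were gst-1, spp-5, pho-11, hrg-7, F38B7.3 and lipl-5. Of the 14, 12 also passed in rpl against its own controls, 8 in rps-23 and 2 in rps-10, and rpl and rps-23 changed in the same direction for 11. None passed between rpl and rps-23 or between rps-10 and rps-23. The count was 3 without both tmC5 controls that had yolk RNA of the other age. With 1 library left out it was 0 without rpl replicate 2 or rps-10 replicate 1, 1 without the other replicate of either mutant, 3 or 4 without either day 4 mIn1 control, 5 without the day 3 tmC20 replicate 2, and 22 without the day 4 tmC20 control.

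Gst-1, a glutathione S-transferase, belonged to the genes that were high in rpl and rps-23. It had 1956 and 1446 CPM in rpl, against 309 to 379 CPM in mIn1 controls, and 815 and 734 CPM in rps-23, against 220 to 290 CPM in tmC5 controls. In rps-10 it had 335 and 371 CPM, within the 235 to 382 CPM of tmC20 controls. The change in rpl was larger than that in rps-10, with a log2 difference of 2.02 ± 0.34 (SE; adjusted p = 0.0302, edgeR). Against rps-23 the difference was 0.75 ± 0.32 and did not pass (adjusted p = 0.882). Pho-11, a predicted acid phosphatase, and spp-5, a saposin-like gene, passed in the same pair of mutants, by log2 1.93 in rpl and 1.79 in rps-23 for pho-11 and by 1.64 and 1.22 for spp-5. F38B7.3 passed only in rpl (log2 change 2.27, adjusted p = 0.00324, edgeR), and its values of 1.02 in rps-23 and -0.93 in rps-10 did not pass.

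Hrg-7 and lipl-5 passed in rps-10 and not in rpl or rps-23. Hrg-7, which encodes a secreted aspartic protease-like protein that signals heme status from the intestine, had 149 and 168 CPM in rpl, against 65.7 to 143 CPM in mIn1 controls. It had 27.1 and 21.7 CPM in rps-10, against 100 to 215 CPM in tmC20 controls, and 104 and 81.2 CPM in rps-23, within the 74.6 to 134 CPM of tmC5 controls. The log2 change in rps-10 was -2.79 (adjusted p = 0.0251, edgeR). Lipl-5, a lysosomal lipase known from fasted worms, had 178 and 212 CPM in rpl, against 112 to 133 CPM in mIn1 controls. It had 38.8 and 26.6 CPM in rps-10, against 80.0 to 201 CPM in tmC20 controls, and its log2 change there was -2.27 (adjusted p = 0.0281, edgeR). In rps-23 it had 129 and 100 CPM, within the 93.8 to 136 CPM of tmC5 controls.

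**Figure D3:**
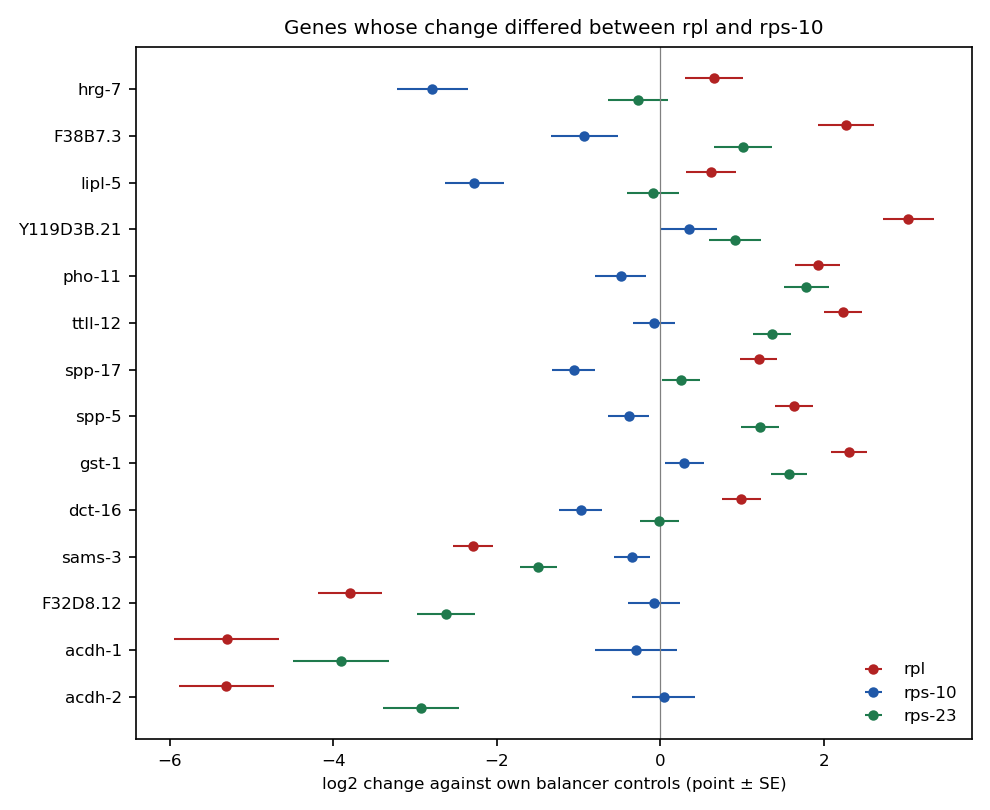
Log2 change (point ± SE) of the 14 genes that differed between rpl and rps-10, shown for rpl, rps-10 and rps-23 against their own controls. The rps-23 points lie on the rpl side of zero for 11 genes, and hrg-7 and lipl-5 stand out by the low rps-10 points of -2.79 and -2.27.

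The ribosomal protein genes themselves were compared next. No large- or small-subunit gene passed the threshold for the difference between rpl and the small-subunit mutants. Of 47 large-subunit genes, 39 had a positive difference, with a median of 0.37, and of 31 small-subunit genes 29 did, with a median of 0.44. The median over all tested genes was 0.02, and 4728 of 9276 were positive. An unadjusted p under 0.05 on the higher side was reached by 11 large- and 9 small-subunit genes, against 4.08% of all genes. Against their own controls, 18 large- and 9 small-subunit genes passed as higher in rpl, where 1.87% of all genes did. None passed in rps-10 or rps-23, where 0.0862% and 0.377% of all genes passed as higher. Summed over each list, RNA lay above every own control in all 3 mutants. For large-subunit genes it was 100060 and 101980 CPM in rps-10, against at most 87241 CPM in tmC20 controls. Median log2 changes of large-subunit genes were 0.90 in rpl, 0.31 in rps-10 and 0.56 in rps-23, and those of small-subunit genes were 0.79, 0.32 and 0.56. Within each mutant the medians of both kinds of gene lay close to each other.

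Examples by name came from both subunits. Rps-29 had the smallest p of the small-subunit list, with a log2 difference of 1.20 ± 0.33 (SE; adjusted p = 0.422, edgeR), and it rose by log2 1.64 in rpl (adjusted p = 0.00492). For the large subunit, rpl-36.A had a log2 difference of 1.14 ± 0.34 (adjusted p = 0.445) and rpl-39 one of 1.23 ± 0.38 (adjusted p = 0.445). The differences of rps-10 (1.00) and rps-23 (0.73) hold the loss of a copy of those genes in their own mutants. Without the 4 targeted genes, 38 of 45 large-subunit genes were positive with a median of 0.41, and 27 of 29 small-subunit genes with a median of 0.43. With library totals in place of TMM the median over all genes was -0.19, and the medians of the large- and small-subunit genes were 0.18 and 0.23. With day 3 controls alone the medians were 0.20 and 0.28. In the 12 libraries whose headings give a replicate number of their own, which hold a single mIn1 control, of day 3, they were 0.10 and 0.11, beside 0.09 for all genes, and with the number as a block 0.08 and 0.07, beside 0.06. The positive medians of both lists thus came close to that of all genes in these libraries.

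Glutathione S-transferases had the highest list median besides that of the named cuticle collagens. Of 19 tested genes, 18 had a positive difference, with a median of 0.96. No member passed the threshold, and 5 had an unadjusted p under 0.05, all higher. In rpl 6 members rose, in rps-23 3 and in rps-10 1, where 1.87%, 0.377% and 0.0862% of all genes did. The share at an unadjusted p under 0.05 on the higher side was 4.08% over all genes. The summed RNA of the list was 3903 and 3139 CPM in rpl, against 639 to 906 CPM in mIn1 controls. It was 907 and 991 CPM in rps-10, against 638 to 752 CPM in tmC20 controls, and 1760 and 1604 CPM in rps-23, against 538 to 703 CPM in tmC5 controls. All 3 mutants thus lay above their controls, in the order rpl, rps-23, rps-10. The list median was also positive with day 3 controls alone (0.97) and day 4 controls alone (1.21), and in the 12 numbered libraries (0.82). Gst-10 had log2 changes of 3.35 in rpl and 3.54 in rps-23, which both passed, and of 0.56 in rps-10, which did not. Its log2 difference was 1.30 ± 0.45 (SE; adjusted p = 0.490, edgeR).

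Promoter stretches are shown for gst-1, which had the smallest p of the list, and for gst-10, which was called in both rpl and rps-23. The 250 bases before the annotated start of each gene were read from the RefSeq WBcel235 genome, on the strand of the gene, at chrIII:9059081-9059330 for gst-1 and chrV:2561440-2561689 for gst-10. Capitals mark TATCAT or TGTCAT on either strand, a short form of the site that SKN-1 is known to bind. Such a match stood in 12 of 19 glutathione S-transferase promoters (63.2%) and in 2330 of 9260 promoters of all tested genes (25.2%). A match is only a stretch of letters and does not show binding.
gst-1: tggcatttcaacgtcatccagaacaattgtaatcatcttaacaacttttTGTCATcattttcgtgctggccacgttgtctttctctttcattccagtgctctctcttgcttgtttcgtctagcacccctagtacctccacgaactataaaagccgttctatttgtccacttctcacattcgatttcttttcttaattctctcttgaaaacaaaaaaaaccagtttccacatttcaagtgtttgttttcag
gst-10: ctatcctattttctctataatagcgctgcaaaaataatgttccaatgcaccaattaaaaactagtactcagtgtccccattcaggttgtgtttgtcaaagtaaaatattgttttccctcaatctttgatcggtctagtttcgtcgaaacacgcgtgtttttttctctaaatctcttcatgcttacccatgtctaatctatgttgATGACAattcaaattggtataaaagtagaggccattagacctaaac

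Chaperones made up a longer and more mixed list. Of 51 tested genes, 37 had a positive difference, with a median of 0.30, and 6 had an unadjusted p under 0.05, all higher (4.08% of all genes). With day 3 controls alone the median was 0.11. None passed the threshold. In rpl 6 rose, in rps-23 2 and in rps-10 0, against 1.87%, 0.377% and 0.0862% of all genes. Hsp-110, a cytosolic co-chaperone of Hsp70, had 4380 and 4930 CPM in rpl, against 1024 to 1692 CPM in mIn1 controls. It had 817 and 800 CPM in rps-10, against 789 to 1450 CPM in tmC20 controls, and 2046 and 2022 CPM in rps-23, against 775 to 853 CPM in tmC5 controls. The rps-10 libraries sat at the low end of their controls while the other mutants lay above theirs. The log2 difference was 1.28 ± 0.33 (SE; adjusted p = 0.390, edgeR), and it was called with each control age as its own group (adjusted p = 0.0458) and by DESeq2 (adjusted p = 0.0482). Hsp-4, the BiP chaperone of the endoplasmic reticulum, rose in rpl by log2 2.40 (adjusted p = 0.00324), with values of 1.50 in rps-23 and 0.26 in rps-10 that did not pass. Hsp-43, a small heat shock protein gene, rose in rpl (log2 2.39) and in rps-23 (1.78).

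The hsp-110 promoter is shown as that of the chaperone with the smallest p, from chrIII:8446910-8447159 in the same build, on the strand of the gene. Capitals mark GAANNTTC or TTCNNGAA, pairs of the triplets of which heat shock elements are made, and neighbouring matches overlap. The stretch held 4 matches. At least 1 stood in 23 of 51 chaperone promoters (45.1%) and in 2555 of 9260 of all tested genes (27.6%).
hsp-110: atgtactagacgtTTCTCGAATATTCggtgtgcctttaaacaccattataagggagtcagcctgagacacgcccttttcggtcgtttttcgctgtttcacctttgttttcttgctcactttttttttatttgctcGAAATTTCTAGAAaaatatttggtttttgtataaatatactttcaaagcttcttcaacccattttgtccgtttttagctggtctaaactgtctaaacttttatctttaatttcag

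Antimicrobial effectors, among them saposins, lysozymes and caenacins, had a median difference of 0.67, with 26 of 31 positive. Unadjusted p values under 0.05 were reached by 9 on the higher side and 1 on the lower side, beside 4.08% and 3.87% of all genes. In rpl 6 rose (1.87% of all genes), in rps-23 2 (0.377%) and in rps-10 1 (0.0862%). The median was 0.42 with day 3 controls alone and 0.26 in the 12 numbered libraries. Besides spp-17 and spp-5, spp-1 had a log2 difference of 1.39 ± 0.47 (SE; adjusted p = 0.475, edgeR) and spp-2 one of 3.01 ± 0.93 (adjusted p = 0.445). Their summed RNA was 6304 and 6730 CPM in rpl, against 2863 to 5653 CPM in mIn1 controls. The sum in rps-10, 2556 and 2361 CPM, lay within the 2191 to 3782 CPM of tmC20 controls, and that in rps-23, 3866 and 3698 CPM, within the 2234 to 4338 CPM of tmC5 controls.

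Acdh-1 and sams-3 belong to the lists of propionate breakdown and methionine cycle genes, in which no member passed for the difference. Of 11 propionate breakdown genes, 7 had a negative difference, with a median of -0.28, and of 15 methionine cycle genes 11 did, with a median of -0.25. The methionine cycle median was -0.60 with day 3 or with day 4 controls alone, -0.61 without rpl replicate 1 and -0.10 without rps-23 replicate 2. The propionate median ran from -0.39 to -0.17 with 1 library left out, with -0.17 reached without rps-23 replicate 2. In rpl 4 genes of each list fell, in rps-23 2 of the first and 3 of the second, and in rps-10 none, where 0.679%, 0.248% and 0.0431% of all genes fell. Hphd-1, the hydroxyacid-oxoacid transhydrogenase of the propionate shunt, fell by 2.63 on the log2 scale in rpl (adjusted p = 0.0176, edgeR). Its log2 values of -2.34 in rps-23 and -0.19 in rps-10 did not pass. Metr-1, methionine synthase, had log2 changes of -2.24 in rpl and -1.98 in rps-23, both past the threshold, and of -0.30 in rps-10. Its log2 difference of -1.10 ± 0.47 did not pass (SE; adjusted p = 0.583). Nhr-156, a nuclear hormone receptor gene, had 0 counts in both rpl libraries and 120 in the mIn1 controls, a ratio of 0 (95% exact binomial interval 0 to 0.104, counting error only). It also fell in rps-23 (log2 -4.58, adjusted p = 0.0142, edgeR) and had a log2 value of -0.91 in rps-10, which did not pass. The difference between rpl and the small-subunit mutants did not pass for this gene (adjusted p = 0.445).

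Among fat metabolism genes, fat-6 was low in rps-10, although that change did not pass (adjusted p = 0.105, edgeR). Fat-6, a stearoyl-CoA desaturase that makes oleic acid, had 707 and 501 CPM in rpl, against 271 to 494 CPM in mIn1 controls. It had 69.3 and 76.5 CPM in rps-10, against 181 to 300 CPM in tmC20 controls, and 250 and 300 CPM in rps-23, within the 242 to 414 CPM of tmC5 controls. Rps-10 thus lay below its controls and rpl above, with a log2 difference of 1.57 ± 0.37 (SE; adjusted p = 0.332, edgeR). Fat-5, a palmitoyl-CoA desaturase, had a log2 difference of 2.29 ± 0.60 (adjusted p = 0.390), with log2 values of 0.84 in rpl, -2.53 in rps-10 and -0.36 in rps-23, none of which passed. Of the 20 fatty acid synthesis genes, 12 were positive, with a median of 0.19. Against their own controls 4 of them fell in rps-23, 1 in rpl and 0 in rps-10, where 0.248%, 0.679% and 0.0431% of all genes fell. Hacd-1 fell in both rpl and rps-23, but the list holds it by its symbol, and a role in synthesis was not checked. Its log2 changes were -4.86 in rpl (adjusted p = 0.00524, edgeR) and -4.06 in rps-23 (adjusted p = 0.00618). The rpl value rests on 1 count over both libraries, a ratio of 0.0289 to the mIn1 controls (95% exact binomial interval 0.000725 to 0.164). Elo-6, a fatty acid elongase gene, fell in rps-23 as well (adjusted p = 0.0101, edgeR). The lysosomal proteases cpl-1 and cpr-6 had log2 values of 0.70 and 0.66 in rpl and of -0.69 and -1.11 in rps-10, none of which passed.

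Mitochondrial and translation lists had medians between -0.02 and 0.38. All 10 tested genes of the mitochondrial genome had a positive difference, with a median of 0.38. Ctc-1, subunit I of cytochrome c oxidase, rose by log2 1.07 in rpl (adjusted p = 0.0352, edgeR). Of 49 nuclear respiratory chain genes 36 were positive, with a median of 0.17, and of 70 mitochondrial ribosomal protein genes 50 were, with a median of 0.24. The nuclear respiratory chain median was 0.04 with day 3 controls alone, 0.07 without a day 4 mIn1 control, and -0.04 in the 12 numbered libraries. That of the mitochondrial ribosomal proteins was 0.13 with day 3 controls alone or without rpl replicate 2, and 0.08 in the numbered libraries. Medians were 0.02 for 27 ribosome biogenesis genes, 0.06 for 41 translation factors and -0.02 for 32 aminoacyl-tRNA synthetases. No member of these lists passed for the difference between rpl and the small-subunit mutants. Pars-1, prolyl-tRNA synthetase, had the smallest p of the last list, with a log2 difference of 0.97 ± 0.27 (SE; adjusted p = 0.408). In rpl against its own controls it rose by log2 1.07 (adjusted p = 0.0166, edgeR).

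The yolk, oocyte, sperm, germ granule and named cuticle collagen lists had the medians furthest from that of all genes, and these medians differed between the settings of control age. Since the pooled tmC20 controls held only 1 day 4 library, control age need not cancel between the arms. The sperm list had a median difference of -1.41, with 52 of 59 genes negative and 22 at an unadjusted p under 0.05 on the lower side, against 3.87% of all genes. Oocyte and eggshell genes had a median of -2.14, vitellogenins -1.88, and germ granule and germline RNA regulators -1.25, with 27 of 28 negative. Named cuticle collagens, mostly of the dumpy, roller, squat and blister genes, had a median of 1.01. The other germ line and cuticle lists had smaller ones, -0.43 for meiosis genes (23 of 31 negative) and 0.24 for col- collagens (48 of 87 positive), and the col- collagen median ran from -0.26 to 0.72 with 1 library left out. None of these members passed for the difference. With day 3 controls alone the medians were -0.50 for sperm, -0.53 for oocyte, 0.33 for vitellogenins, -0.28 for germ granule genes and 0.26 for named collagens. With day 4 controls alone they were -2.60, -2.53, -2.20, -1.48 and 4.11, in the same order. In the 12 numbered libraries, with their single day 3 mIn1 control, they were -0.02, 0.90, 3.79, 0.06 and -0.19. The direction of all but the sperm median was thus reversed there.

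The same lists were then summed in each library. Summed sperm gene RNA was 622 and 602 CPM in rpl, against 430 to 1979 CPM in mIn1 controls. It was 2624 and 2793 CPM in rps-10, against 1396 to 2832 CPM in tmC20 controls, and 2197 and 1747 CPM in rps-23, against 816 to 1099 CPM in tmC5 controls. Only the rps-23 libraries lay outside their own controls, above them. Oocyte gene RNA was 1317 and 1089 CPM in rpl, against 972 to 10728 CPM in mIn1 controls, so the rpl libraries sat at the low end of a wide range. Msp-81, a major sperm protein gene, had 1 count in both rpl libraries together and 55 in the mIn1 controls, a ratio of 0.0604 (95% exact binomial interval 0.00150 to 0.351). Of the markers listed for tissues, all 7 sperm, 8 oocyte and 7 germ line genes tested had a negative difference, with medians of -1.84, -3.23 and -1.09, and all 6 body muscle genes a positive one, with a median of 0.30. Positive differences were found for 5 of 8 intestine, 3 of 6 hypodermis, 2 of 4 pharynx and 5 of 8 neuron markers, with medians of 0.19, 0.11, -0.06 and 0.51. The median difference of the 32 genes in the muscle list was 0.39 with all controls and 0.05 with day 3 controls alone. The part of stage and tissue make-up in the other results was not tested.

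**Figure D4:**
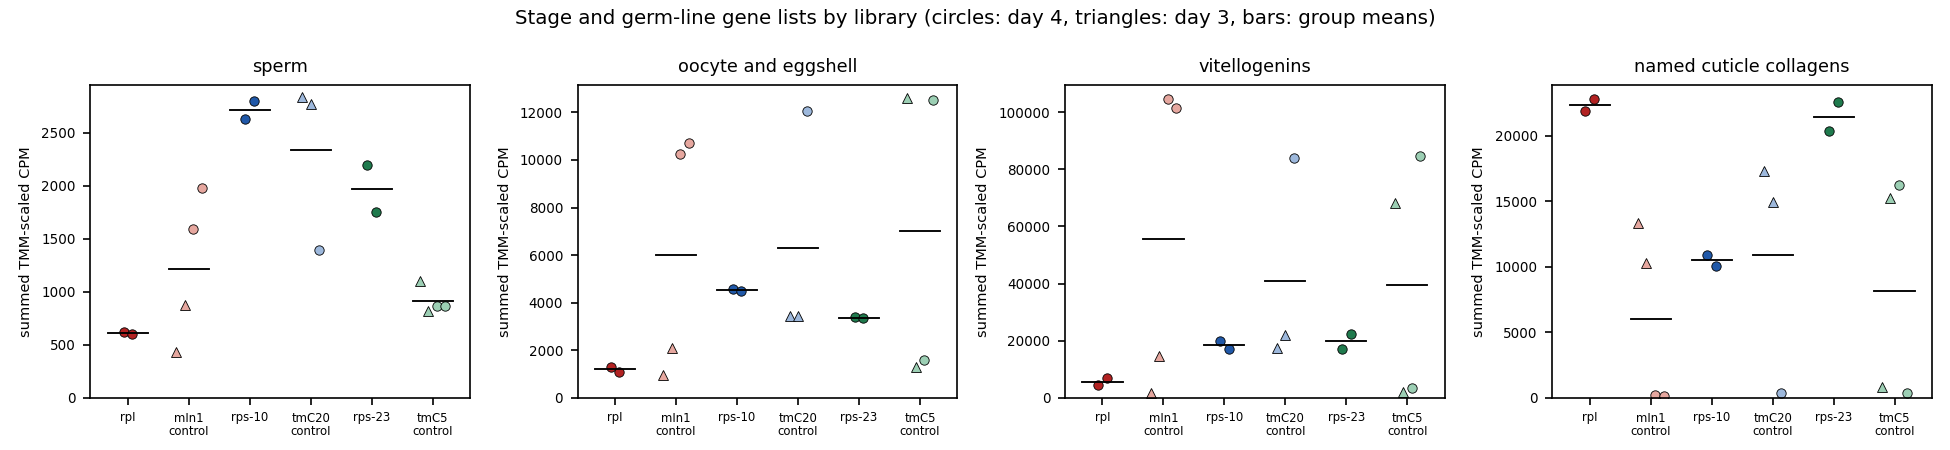
Summed CPM (scaled by TMM) of 4 gene lists in every library, with each mutant left of its own controls, circles for day 4, triangles for day 3 and bars for means. The rpl libraries lie at 602 to 622 CPM for sperm genes, below both small-subunit mutants, and in the oocyte, vitellogenin and collagen panels 1 triangle and 1 circle among the tmC5 controls lie at the level of the other age.

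**Figure D5:**
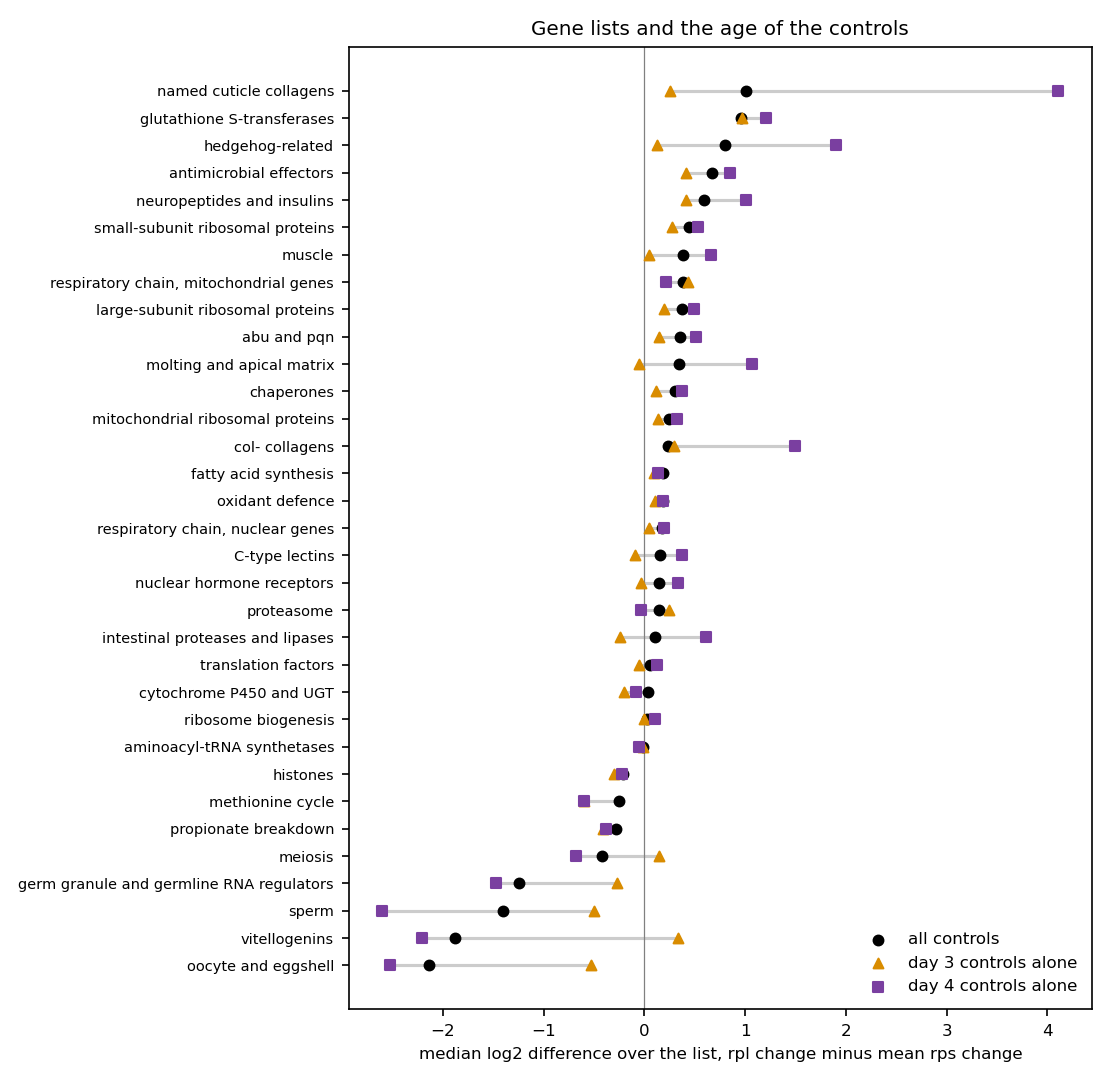
Median log2 difference between rpl and the small-subunit mutants for each of 33 gene lists, with all controls (circles), day 3 controls alone (triangles) and day 4 controls alone (squares). Glutathione S-transferases stay between 0.96 and 1.21, while named cuticle collagens run from 0.26 to 4.11. Both age settings hold a tmC5 control with yolk RNA of the other age.

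The difference was spread over all chromosomes. Genes with an unadjusted p under 0.05 made up 7.83% of those tested on chromosome I, 8.10% on II, 8.09% on III, 8.92% on IV, 8.15% on V and 5.76% on X. The balancers lie on I, II and IV. Median differences on the autosomes ran from -0.07 on IV to 0.06 on V, and the median on X was 0.29. The 14 genes that passed between rpl and rps-10 were placed on every one of these chromosomes. There were 5 of 1558 tested genes on V, 3 of 1556 on II and 1 or 2 on each of the others, beside 0.151% of all genes. Whether chromosomes differed was not tested.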

How the data were processed

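Whole animals were profiled by RNA-seq with a stranded SMARTer kit. RiboFlow was used by the authors for mapping, against transcripts of WBcel235, and the counts they deposited are raw. The authors state that of 3 replicates the last was dropped for low depth. The deposited Ribo-seq table was not used here. Of 20 RNA columns, 17 were distinct and were used once each. 12 of these carry a replicate number of their own. The age of 1 tmC20 control is not settled, since identical columns stand under both ages; it was used as day 3. The study's methods call the replicates biologically independent, while identical columns and unnumbered headings do not settle which replicate some libraries are.

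Counts were filtered with filterByExpr, scaled by TMM and fitted with the quasi-likelihood test of edgeR 4.0.16 (R 4.3.3), with 6 groups (3 mutants, 3 control sets) in 1 fit and control ages pooled, and p values were adjusted by Benjamini-Hochberg over all 9276 genes tested of 9532 (threshold 0.05). SEs were derived from the log2 value and its p. Named genes were the 4 targeted genes, up to 15 called genes a direction by size (none passed) and, since under 5 passed, the 5 of each direction with the smallest p, and up to 4 with the smallest p in each of 33 lists. The genes that passed against rps-10 alone and those with 0 counts in rpl were added after their values were seen. The comparison and the lists were chosen with earlier results of these data known. DESeq2 1.42.0 and limma voom 3.58.1, other scalings and filters, each control age, a replicate block and each library left out were alternatives. Coordinates are from Ensembl and promoter sequence from RefSeq, both WBcel235. The steps were tested on simulated data. Intervals of ratios cover counting error only.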

Additional observations from a re-analysis of the deposited data

Results flagged for a closer look

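Between rpl and rps-10, 14 genes had changes that differed by the edgeR test of the difference itself, at adjusted p values under 0.05. The log2 difference between the change in rpl and that in rps-10 was 3.44 for hrg-7, 3.2 for F38B7.3, 2.89 for lipl-5, 2.68 for Y119D3B.21, 2.41 for pho-11, 2.31 for ttll-12, 2.26 for spp-17, 2.02 for spp-5, 2.02 for gst-1 and 1.96 for dct-16. On the lower side it was -5.35 for acdh-2, -5.01 for acdh-1, -3.73 for F32D8.12 and -1.94 for sams-3. None of them passed between rpl and rps-23.

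Within the control groups of 4 libraries, the 20 genes whose levels are given by library were searched for a single library far from the others (40 groups in all, of which chance marks about 1 in 20). 1 such case was found: lipl-5 had 112 CPM in a day 4 mIn1 control, below the other 3.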

How the results depend on the processing

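For the comparison of rpl with both small-subunit mutants, counts of genes past the threshold were 0 with other size factors, library totals, limma voom and either filter. The count was also 0 without both tmC5 controls that had yolk RNA of the other age. Counts were 27 with DESeq2, 1 and 50 with day 3 or day 4 controls alone, and 18 with each control age its own group. The 18 shared 12 genes with the 27 and 12 with the 50. Leaving out 1 library gave 0 to 3.

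For rpl against rps-10 alone (14 as reported) the counts were 80 with DESeq2, 27 and 28 with day 3 or day 4 controls alone, 40 with each age its own group, 3 without those tmC5 controls, and 0 to 22 with 1 library left out. The lowest came without rpl replicate 2 or rps-10 replicate 1 and the highest without the day 4 tmC20 control. For rpl against rps-23 alone (0) they were 1 with DESeq2 and 11 with day 4 controls alone, and 0 with any 1 library left out. For rps-10 against rps-23 (0) they were 39, 32, 2 and 15 with DESeq2, day 3 controls, day 4 controls and each age its own group, and 0 to 14 with 1 library left out. In the arms, the same 4 alternatives gave 568, 138, 2079 and 544 for rpl (236), and 157, 143, 36 and 251 for rps-23 (58). For rps-10 (12), DESeq2 gave 34 and day 4 controls alone 5. At least 10 counts in every library gave 5 in rps-10 and 29 in rps-23. Without both tmC5 controls, rps-23 had 12. Leaving out 1 library gave 30 to 304 in rpl, 2 to 13 in rps-10 and 7 to 155 in rps-23. The lowest count in rpl came without its replicate 1, while 235 remained without its replicate 2. In rps-10 and in rps-23 the lowest count came equally without either replicate of the mutant itself. The cause was not tested.

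The alternatives without the tmC5 controls and on numbered libraries were chosen after seeing the data. The block planned for all 17 libraries was not run, since 5 headings give no number of their own, and a replicate block could be fitted only to the 12 libraries with a number of their own, which leave 1 mIn1 control. Counts with the block were 0 for rpl against rps-10, 0 in rpl, 4 in rps-10 and 2 in rps-23. Without it in the same libraries they were 0, 2, 3 and 3. Deviations of same-numbered libraries correlated at -0.0392 to 0.0503 over 10 pairs of groups, so the numbers were not taken as pairing the samples.

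Over 29 alternatives, 2144 of 2155 log2 differences of 75 genes, most but not all of them given by the naming rule, kept their direction. The 11 exceptions lay in 5 genes. With the 12 numbered libraries, with and without the block, list medians were 4.03 and 3.79 for vitellogenins, 0.94 and 0.90 for oocyte genes, 0.14 and 0.06 for germ granule genes and -0.79 and -0.19 for named collagens, all against the direction with all libraries. There rpl-5 had -0.19 and -0.094, vit-6 2.44 and 2.27, vit-2 2.90 and 2.76, and cbd-1 0.34 and 0.15. Vit-2 had 0.0077 with day 3 controls alone. With 1 library left out, rpl-33 ran from -0.47 to 0.021 and rpl-5 from -0.046 to 0.49. Library totals moved the median over all genes to -0.19, against 0.02 with TMM, and DESeq2 size factors left it at 0.02. With 2 libraries per mutant, and 0 to 3 counts for some genes in rpl, many differences, large ones included, may not be detectable at this depth.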

Other observations

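Genes called in the comparison of rpl with both small-subunit mutants only under an alternative, and looked up after those calls were seen, included co-chaperone genes and a tubulin gene. Tbb-6, a beta-tubulin gene, had a log2 difference of 3.94 between rpl and the small-subunit mutants (adjusted p = 0.258, edgeR; 0.00366 with DESeq2), with log2 changes of 3.04 in rpl (adjusted p = 0.0336), -1.76 in rps-10 and -0.05 in rps-23, of which only the first passed. Its level was 82.2 and 65.2 CPM in rpl, against 5.28 to 14.9 CPM in mIn1 controls. It was 5.82 and 6.41 CPM in rps-10, against 2.11 to 35.3 CPM in tmC20 controls, and 47.8 and 38.4 CPM in rps-23, within the 23.2 to 73.3 CPM of tmC5 controls.

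Bag-1, a nucleotide exchange factor for Hsp70, had a log2 difference of 1.95 (adjusted p = 0.15, edgeR; 0.00482 with DESeq2), and sgt-1, a co-chaperone, one of 0.85 (adjusted p = 0.422; 0.0493 with DESeq2).

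Meg-1, a germ granule gene of the early germ line, had 0 counts in both rpl libraries and 350 in the mIn1 controls. The ratio was 0 (95% exact binomial interval 0 to 0.0352, counting error only). The mIn1 controls were themselves spread, at 1.29 and 10.8 CPM on day 3 and at 120 and 109 CPM on day 4. The pooled ratio thus rests mainly on the day 4 controls. The log2 difference of meg-1 did not pass (adjusted p = 0.744, edgeR).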
